A study of Mus musculus with 22 samples.

Results

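Olfactory receptor genes with signal in arterial smooth muscle were described for 4 members, Or51e1, Or51e2, Or5m3b and Or2t43. They were chosen from these data because their signal differed between tissues, and they are 4 of the 28099 genes in the deposited table and 4 of its 505 olfactory receptor genes. The study sequenced RNA of arterial smooth muscle cells that had been isolated by fluorescence-activated cell sorting. The cells came from 7 mouse tissues: aorta, heart, kidney, bladder, lung and stomach gave 3 libraries each, and intestine gave 4. The genotype was Cspg4-Dre/Acta2-CreERT/R26-GFP in all tissues but heart, where it was Cspg4-DreERT/Acta2-CreERT/R26-GFP, so heart and its genotype cannot be told apart. The Dre and Cre recombinases were driven from the Cspg4 and Acta2 loci, so cells were marked by the activity of genes of mural and smooth muscle cells. All groups received tamoxifen at 0.75 mg per 10 g of body weight for 3 days, and the age of the animals is not given in the labels. Whether each library had its own animal is not stated in the labels, so p-values here reflect only how far these libraries spread, and that spread may be technical. The study compared the 7 tissues and named none as the baseline, so each tissue is set against the mean of the other 6.

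Olfactory receptors are G protein-coupled receptors for odorants and form a very large gene family in the mouse, with each coding sequence held in a single exon. In olfactory neurons they couple through the G protein subunit encoded by Gnal to the adenylyl cyclase encoded by Adcy3, and cyclic AMP opens a channel built from Cnga2, Cnga4 and Cngb1. A few of these receptors are also made outside the nose. Or51e2, known earlier as Olfr78, responds to the short-chain fatty acids acetate and propionate and is known from vascular smooth muscle and renin-secreting cells of the mouse. Or51e1, known earlier as Olfr558, responds to short-chain acids such as butyrate and is also known from blood vessels.

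On mm39, Or51e1 (ENSMUSG00000070423) lay on chromosome 7 at 102351422 to 102361271 on the plus strand and Or51e2 (ENSMUSG00000043366) on the same chromosome at 102387718 to 102408678 on the minus strand. The 2 genes faced each other end to end, with 26446 bases and the genes Or51a39 and Or51a25 between them. Or5m3b (ENSMUSG00000045392, Olfr1033) lay on chromosome 2 at 85850977 to 85875515 on the plus strand. Or2t43 (ENSMUSG00000059279, Olfr224) lay on chromosome 11 at 58456682 to 58461379 on the minus strand. In the GENCODE M21 annotation of GRCm38, the coding sequence of each gene was held in 1 exon, with 951 bases in Or51e1, 960 in Or51e2, 930 in Or5m3b and 942 in Or2t43. All exons together covered 3041 bases in Or51e1, 6033 in Or51e2, 4261 in Or5m3b and 2123 in Or2t43.

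Promoters are shown for Or51e1, the receptor with the highest signal, and for Or2t43, the receptor listed almost only in aorta. They are the 2 receptors with an entry in the promoter table used here. RefSeq gives them on GRCm38.p6, with 250 bases before and 50 after the transcript start, at chr7:102702073-102702372 on the plus strand for Or51e1 and at chr11:58570519-58570818 on the minus strand for Or2t43. Both are written 5′ to 3′ in the direction of the gene, and capitals mark a match to the cyclic AMP response element TGACGTCA.
Or51e1: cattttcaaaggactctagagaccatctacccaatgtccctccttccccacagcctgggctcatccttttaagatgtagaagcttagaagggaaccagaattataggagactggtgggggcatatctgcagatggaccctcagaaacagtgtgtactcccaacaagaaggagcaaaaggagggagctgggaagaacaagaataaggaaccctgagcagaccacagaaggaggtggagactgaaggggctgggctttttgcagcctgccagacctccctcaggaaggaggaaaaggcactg
Or2t43: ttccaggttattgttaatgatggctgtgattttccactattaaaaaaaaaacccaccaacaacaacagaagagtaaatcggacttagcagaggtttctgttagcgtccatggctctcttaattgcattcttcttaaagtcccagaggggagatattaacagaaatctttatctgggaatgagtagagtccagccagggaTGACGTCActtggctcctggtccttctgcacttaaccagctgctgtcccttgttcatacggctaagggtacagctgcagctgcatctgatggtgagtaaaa
The match in Or2t43 began 51 bases before the start, and Or51e1 had none in this window. That motif, picked after the sequences had been seen, was held by 1.79% of 32851 mouse promoters of the same length, and 4 other motifs were searched on both strands. The E box CANNTG occurred 5 times in Or2t43 and 1 time in Or51e1, and 72.3% of all promoters held it. Neither promoter held a CArG box, the binding motif of serum response factor in smooth muscle genes, which 1.63% of promoters held. Neither held CCCNNGGG, the core of sites for Olf/Ebf factors of olfactory neurons, found in 13.7% of promoters, nor the homeodomain core TAATTA, found in 5.29%. The guanine and cytosine content was 51.3% in Or51e1 and 43.7% in Or2t43.

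The deposited values are a signal, whole numbers scaled per library, in which 1 sequenced read was worth between 0.4216 in intestine 3 and 9.4205 in aorta 1. Reads rebuilt from those steps numbered 629356, 1540267 and 1927744 in the aorta libraries and 817126 in heart 3, against 4388919 to 12708499 in the other libraries. A count of 0 allows up to 3 reads, a signal of 28.3 in aorta 1 and 24.3 in heart 3 but at most 12.2 in any other library, and this covers counting error only. Lung 2 and lung 3 stood apart: they listed 444 and 492 of the 505 olfactory receptor genes above 0, against 15 to 79 in the other libraries. All 8 smooth muscle markers reached a mean signal of at least 10 in every tissue, and so did all 5 fibroblast markers. In bladder the fibroblast markers summed to 15751 to 22170 and the smooth muscle markers to 7742 to 17756. In every other tissue the smooth muscle sums lay above the fibroblast sums, which reached 34846 in aorta 1. The part of fibroblasts in the receptor values was not tested. In such sorted but bulk samples, fewer cells that make a receptor and less RNA per cell cannot be told apart.

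Or51e1 had its highest signal in arterial smooth muscle of heart, with 4344, 3617 and 8850 in the 3 libraries. Kidney followed with 2348, 2482 and 3063, and aorta with 1027, 2533 and 403. Each heart library exceeded each kidney library in signal, whereas the ranges of kidney and aorta overlapped. Rebuilt reads per exonic base, which are not scaled for depth, were 1.63, 1.56 and 0.360 in heart and 1.69, 1.24 and 0.889 in kidney. How far the order of heart and kidney followed what 1 read is worth in each library was not tested. Bladder had 533, 335 and 75, intestine had 313, 238, 272 and 230, and stomach had 196, 214 and 270. The ranges of these 3 tissues overlapped, and each of their libraries lay below every aorta library except for bladder 1. Lung was lowest with 28, 29 and 12, below every other library. The tissue means were 5604 ± 2835 in heart, 2631 ± 380 in kidney, 1321 ± 1095 in aorta, 314 ± 230 in bladder, 263 ± 37.8 in intestine, 227 ± 38.6 in stomach and 23.0 ± 9.54 in lung (SD, n = 3, or 4 in intestine). The heart mean was 7.03 times the mean of the other tissues, a description of a gene chosen for its pattern. It was 3980 without heart 3, the aorta mean was 715 without aorta 2 and the bladder mean was 205 without bladder 1. Or51e1 was above 0 in all 22 libraries, which held 27929 rebuilt reads of it, and lung still gave 90 reads.

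Or51e2 shared the order of its 2 highest tissues with Or51e1 but spread more within kidney and aorta. Heart had 1456, 1155 and 1537, a mean of 1383 ± 201 (SD, n = 3). Kidney had 1315, 342 and 600, a mean of 752 ± 504 (SD, n = 3), and 1 of its libraries, kidney 1, lay within the heart range. Aorta had 28, 1135 and 43, and aorta 2 alone carried its mean of 402, which was 35.5 without that library. The value of 28 in aorta 1 rested on 3 reads. Intestine had 221, 143, 196 and 104, above every library of stomach, which had 43, 32 and 56. Lung had 136, 40 and 16 and bladder 123, 41 and 25, and their ranges overlapped each other and that of stomach. Without other single libraries the mean also moved by more than 1.5 times, to 471 in kidney without kidney 1, 28.0 in lung without lung 1 and 33.0 in bladder without bladder 1. Each neighbouring pair of tissues in the order of means, heart, kidney, aorta, intestine, lung, bladder and stomach, overlapped in range.

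The pair on chromosome 7 varied together across libraries, with a Pearson r of 0.80 and a Spearman rho of 0.76 over 22 libraries on log2(signal + 1), values that share each library's depth and RNA. Or51e1 exceeded Or51e2 in signal in all libraries but the 3 of lung. There the ratio of Or51e1 to Or51e2 signal was 0.206, 0.725 and 0.750, against 1.39 to 36.7 in the other libraries. Per exonic base the ratio was 0.410, 1.45 and 1.51 in lung, so on that scale only lung 1 held more of Or51e2. In intestine the signal ratios were 1.42, 1.66, 1.39 and 2.21. The ratio of 36.7 came from aorta 1, where Or51e2 had only the 3 reads named above. Aorta 2 had the highest level of both receptors among the aorta libraries.

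Or5m3b varied least between tissues of the 4 receptors, its highest tissue mean being 2.34 times the mean of the other tissues. Aorta had 292, 239 and 634, heart 179, 294 and 396, and kidney 226, 215 and 391. The ranges of these 3 tissues overlapped, with means of 388 ± 214, 290 ± 109 and 277 ± 98.6 (SD, n = 3 each). Lung had 143, 190 and 206, below every kidney library, and the lung mean was 0.897 times the mean of the other tissues, against 0.0133 for Or51e1 and 0.137 for Or51e2. Intestine had 114, 135, 114 and 112 and bladder had 117, 91 and 125. Stomach was lowest with 23, 11 and 18, a mean of 17.3 ± 6.03 (SD, n = 3), below every library of the other tissues. The lung mean of 180 exceeded that of intestine, 119, with no overlap of libraries, while intestine and bladder overlapped. All 22 libraries were above 0, and the 93 reads in stomach were the fewest of any tissue.

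Or2t43 was listed almost only in aorta, with 9, 166 and 149. These values rested on 1, 41 and 45 reads, so aorta 1 was below what a count of 0 allows in that library, and the tissue mean of 108 ± 86.2 (SD, n = 3) rested on 2 libraries. Heart 1 had 10, from 11 reads, and heart 2 and heart 3 were at 0. Kidney 2 had 1, lung 1 and lung 3 had 1 and 3, and every library of bladder, stomach and intestine was at 0. Aorta 2 and aorta 3 thus exceeded every library of the other tissues, which reached 10 at most, while aorta 1 lay below heart 1. The gene had 105 reads in all, and 87 of them were in aorta, which held 3 of the 4 shallowest libraries. A set of 5 skeletal muscle markers summed to 20680 in aorta 3, against 978 in aorta 2 and 35 to 1972 in all other libraries, and their part in the signal of Or2t43 was not tested.

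**Figure D1:**
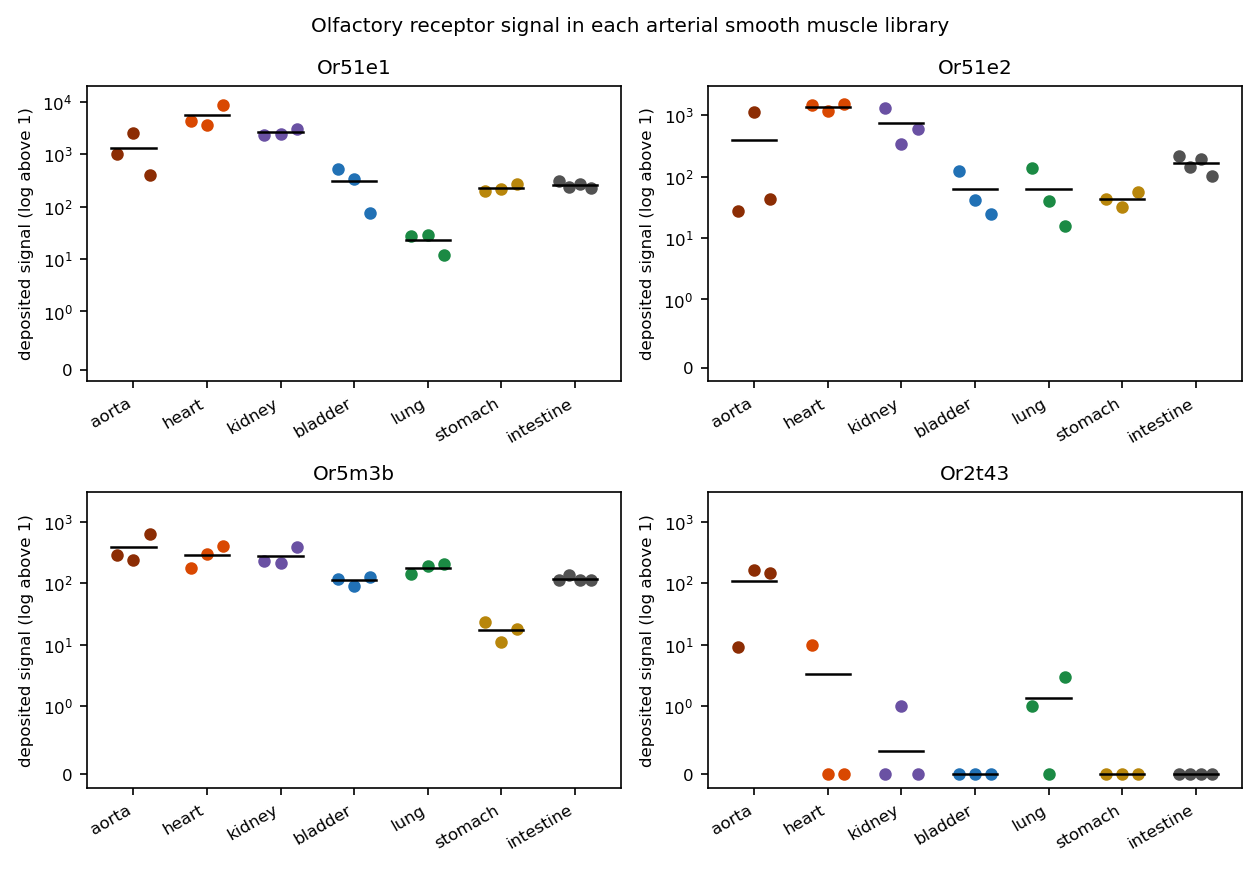
Deposited signal of each receptor in each of 22 libraries (points, vertical axis linear below 1 and logarithmic above) by tissue, with bars at the tissue means. Or51e1 and Or51e2 are highest in heart, Or5m3b spans 11 to 634 and Or2t43 exceeds 10 only in 2 aorta libraries.

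Levels of different genes were compared per exonic base, since the receptors differ in exon length. Or51e1 had 1.63, 1.56 and 0.360 rebuilt reads per exonic base in heart and 1.69, 1.24 and 0.889 in kidney. Myl9, an abundant myosin light chain of smooth muscle, had 1.62 to 1.98 in every library, although the libraries differed widely in depth. Where reads per base stand at 1 level in every library, a gene's signal follows what 1 read is worth there, and Or51e1 came close to the level of Myl9 in heart 1, heart 2 and kidney 1. Whether its signal was held in this way was not tested. The share of genes with more reads per base than Or51e1 was 0.171% in heart 1, 0.195% in heart 2, 0.420% in heart 3 and 0.171% in kidney 1. Or51e2 reached 0.275, 0.250 and 0.0315 in heart and 0.478, 0.0859 and 0.0877 in kidney. Or5m3b stayed between 0.00446 in stomach 2 and 0.116 in kidney 1. Or2t43 reached 0.0193 in aorta 2 and 0.0212 in aorta 3, where 25.7% and 29.0% of genes had more.

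**Figure D2:**
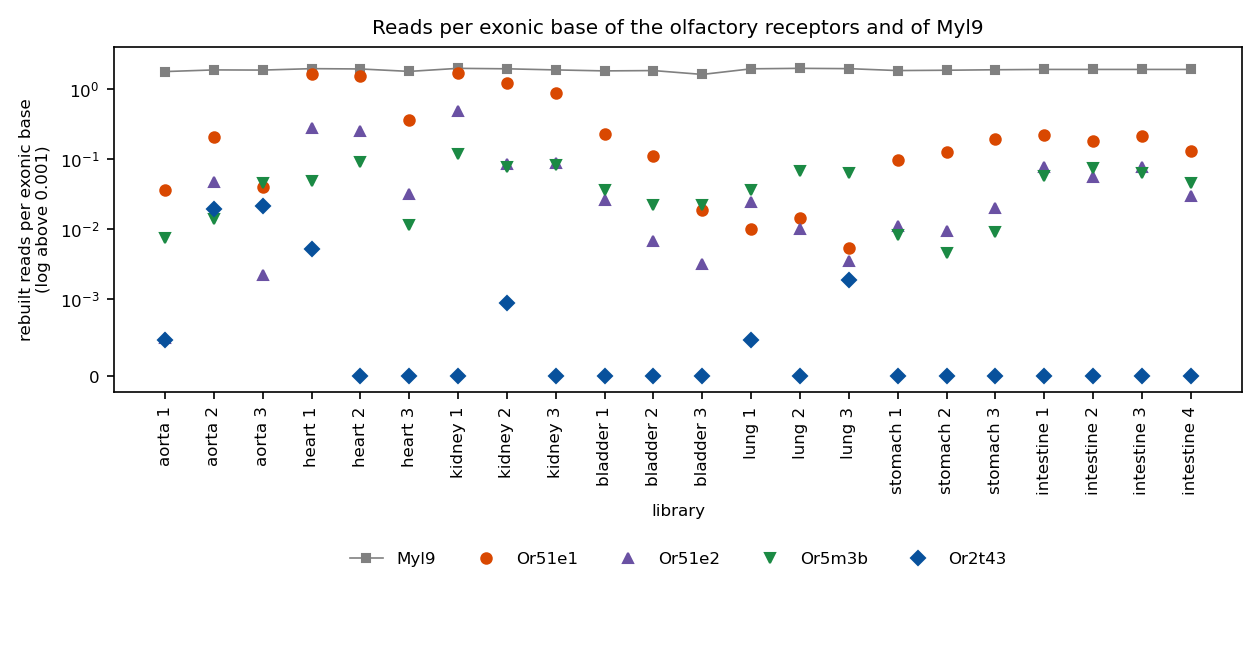
Rebuilt reads per exonic base (vertical axis, linear below 0.001 and logarithmic above) of the 4 receptors and of Myl9 in each library along the horizontal axis. Myl9 stays between 1.62 and 1.98, and Or51e1 comes near it in heart 1, heart 2 and kidney 1.

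Few other olfactory receptors had any level in these cells. Of 505 genes, 469 never reached a signal of 10 in any library and 16 had a mean of at least 10 in some tissue. The number past that mean was 7 in aorta, 6 in heart, 7 in kidney, 4 in bladder, 6 in lung, 3 in stomach and 6 in intestine, and Or51e1, Or51e2 and Or5m3b were among them in every tissue. Just inside the described group stood Or2t43, with 108 in its highest tissue, and just outside it Or51a39, with 64.0 in heart. Or2r2 followed with 38.0 in heart and 18.3 in lung, Or51f23b with 33.7 in heart, and Or8b53 with 25.3 in bladder, where its libraries ran from 5 to 55. Or10ad1 and Or10ad1b, with 21.0 and 16.0, were highest in intestine; both also had reads in stomach and lung, and reads of these like-named copies may have been split between them. Or51r1, Or51f5, Or8b57, Or2v1, Or5m9 and Or51v14 had means of 14.7 in lung, 13.3 in kidney, 12.7 in aorta, 12.0 in intestine, 11.7 in kidney and 10.0 in aorta. The 12.7 of Or8b57 came from 4 reads in a single library.

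The 4 receptors held most of the olfactory receptor signal in all libraries but lung 2 and lung 3. Their share of it was 94.8% to 97.5% in heart, 95.5% to 98.2% in kidney and 67.1% to 94.9% in aorta. In lung it was 73.5% in lung 1 but 22.7% and 11.3% in lung 2 and lung 3. In those 2 libraries nearly every receptor gene was listed at a low level, with a median signal over the 505 genes of 1 and 3. Vomeronasal receptor genes, pheromone receptors of another sense organ, were listed there too, 172 and 180 of 182, against 2 to 35 in the other libraries. Across all genes, 87.1% and 91.1% were above 0 in lung 2 and lung 3, against 43.5% to 74.1% elsewhere. The receptors with the lowest lung values, Or51e1 at 29 and 12 and Or2t43 at 0 and 3 in those libraries, thus stood beside a wide low listing of unrelated receptor genes, whose part in them was not tested.

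**Figure D3:**
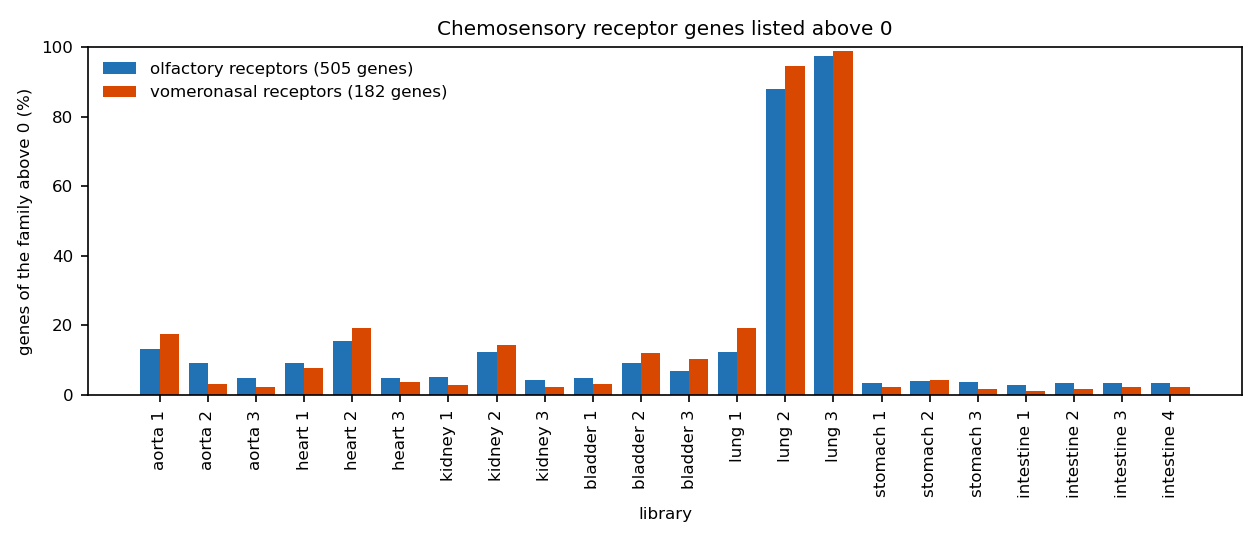
Share of olfactory receptor genes (505) and vomeronasal receptor genes (182) listed above 0 (vertical axis, percent) in each library. Lung 2 and lung 3 list nearly all genes of both families, and no other library reaches 20%.

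Neighbouring genes were read for signal running on from one gene to the next. The 5 genes on each side of every receptor came to 32 other genes, of which 21 never reached a signal of 10 and 8 passed the filter of at least 10 in at least 3 libraries. The library kit named in the labels does not mark the strand, so reads of overlapping or abutting genes on opposite strands cannot be told apart. Of the neighbours wholly upstream on the same strand, the most reads were 20 in Or51d1 for Or51e1, 39 in Or51f1 for Or51e2 and 31 in Or5m11b for Or5m3b. Or2t43 differed, since on its strand upstream lay Lypd8l, a LY6/PLAUR domain protein, 37650 bases away, with 328, 402 and 368 in stomach, where Or2t43 was at 0, and 38, 0 and 26 in aorta.

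Or51a39, whose end lay 86 bases past the end of Or51e1 on the opposite strand, had 42, 85 and 65 in heart and 13, 5 and 15 in kidney. Its 269 reads were 0.963% of those of Or51e1, 1.55% in heart and 0.431% in kidney, and it was at 0 in all 3 aorta libraries, where Or51e1 had 856 reads. Heart was thus above every other library of this gene, which reached 10 in only 2 libraries outside heart and so passed the filter through heart; no test is given. Or51f23b lay inside Or51e2 on the same strand, with all of its 7549 bases shared, and had 33, 44 and 24 in heart. It also had 45 in aorta 2 and 0 in the other 2 aorta libraries, as Or51e2 was high in aorta 2 alone, and its 231 reads were 2.38% of those of Or51e2. It too reached 10 in only 2 libraries outside heart, so no test is given. Or51a25, between the pair, had 49 reads in all, with an adjusted p of 0.108 in the F test.

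Or5m9 began 689 bases past the end of Or5m3b on the same strand and had 14, 5 and 16 in kidney and 9, 13 and 8 in lung. Its reads were 3.44% of those of Or5m3b over all libraries, 4.54% in kidney and 5.66% in lung, and it was at 0 in the aorta libraries, where Or5m3b had its highest mean. Outside kidney it reached 10 in 1 library, so it passed the filter through kidney and no test is given. Or2t47, the nearest gene past the end of Or2t43 at 10219 bases, had 11 reads in all, 7 of them in aorta 3.

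Trim58, a tripartite motif protein known from red cell precursors, lay 69911 bases from Or2t43 on the opposite strand and had 179, 154 and 73 in aorta. Its other libraries reached 19 at most, in heart 1. Outside aorta it reached 10 in only 2 libraries, so it passed the filter through aorta and no test is given. Over 22 libraries its Pearson r with Or2t43 was 0.81, but in aorta 1 Trim58 was at its highest and Or2t43 had 1 read. The 10 erythroid markers summed to 154 to 320 in aorta, with the highest median of any tissue, 207, and to 1 to 515 in the other tissues. The globin genes Hbb-bs and Hba-a1 averaged 98.3 and 76.3 in aorta, while Gata1, Klf1, Alas2 and Epb42 were at 0 there, where 0 allows up to 28.3 in aorta 1. In lung Hbb-bs averaged 98.7 and the median sum was 202. The part of such cells in Trim58 and Or2t43 was not tested. Trim68, 14887 bases upstream of Or51e1 on the opposite strand, was above 0 in all 22 libraries and had an r of 0.04 with Or51e1. Of the 8 tested neighbours, 5 differed among the tissues in the F test at an adjusted p under 0.05, against 59.6% of all 16917 tested genes. Because 4 of these 5, Trim58, Or51a39, Or51f23b and Or5m9, would not have passed the filter without 1 tissue in which they were high, the count supports nothing about neighbours.

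**Figure D4:**
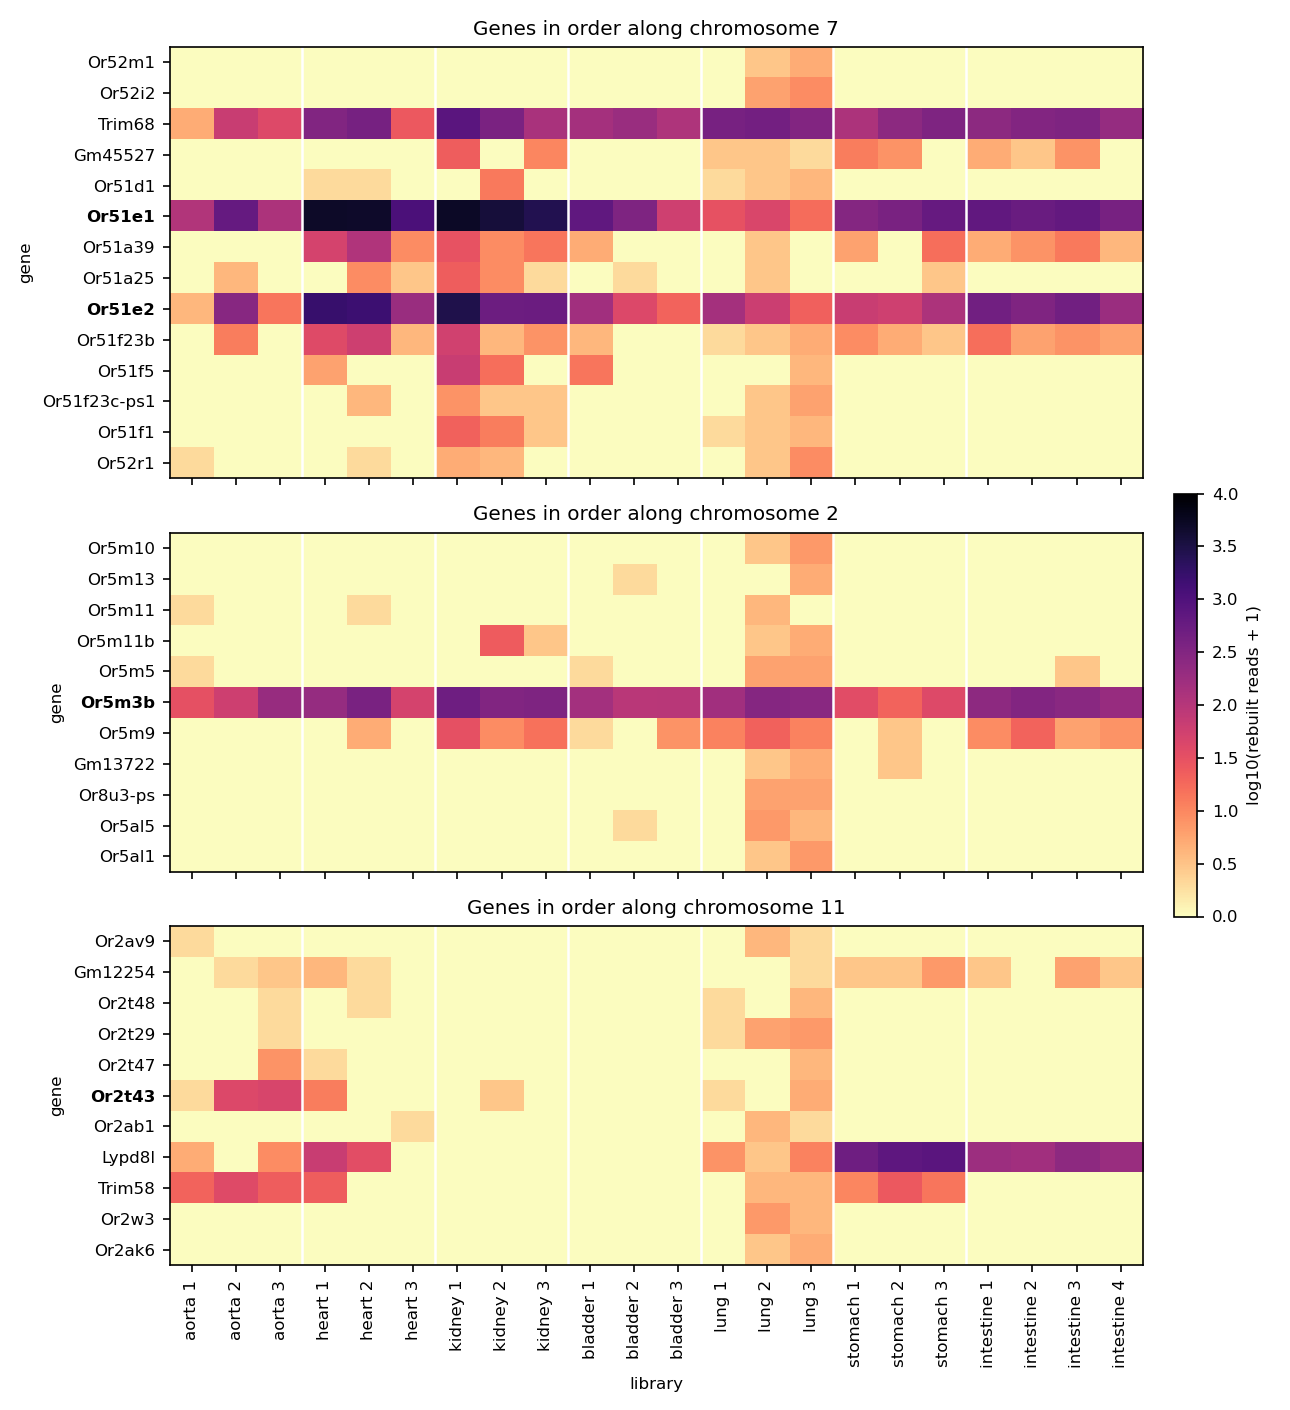
Rebuilt reads as log10(reads + 1) (colour) of the receptors (bold) and of their 5 neighbours on each side, in order along 3 chromosomes (vertical axis), in each library (horizontal axis). Apart from the receptors, the rows with most reads are Trim68 with 5585 and Lypd8l with 2878.

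Tests were made on 39 genes other than the receptors: 14 of the olfactory cascade, 8 of receptor transport, 9 acid receptors and carriers and the 8 neighbours. In aorta 3 of the 39 were higher and 17 lower than the mean of the other tissues, against 9.15% and 42.8% of all tested genes. In heart 3 were higher and 6 lower, against 6.03% and 12.4% of all, and in kidney 8 and 2, against 6.35% and 4.11%. In bladder 4 were higher and 5 lower, against 8.31% and 7.40%, and in lung 3 and 2, against 4.43% and 3.48%. In stomach 10 were higher and 2 lower, against 13.4% and 6.93%, and in intestine 11 and 5, against 15.5% and 9.97%. Scaled to equal total signal the bladder split was 3 higher and 6 lower, and scaled by the median of ratios the lung split was 2 and 3. In aorta the median log2 fold change of all tested genes was -1.04, and edgeR's quasi-likelihood test on rebuilt reads called 6 listed genes there, 3 higher and 3 lower. In heart it called 6 higher and 0 lower, where limma's lower calls numbered 6. Of the 42 higher calls, 7 were of genes that passed the filter only through the tissue in which they were called: 1 in aorta, 2 in heart, 3 in kidney and 1 in lung. Ffar2, Ffar4 and Hcar2, each called higher in 2 tissues, passed it only through those 2 together. Of 81 calls, 30 were kept under every alternative that tested them, and the values below are for those unless stated. The 5 of them in aorta went untested without the 4 shallowest libraries, which include all 3 of aorta. With a signal of at least 50 asked, 10 of the 30 were not tested, among them those of Ffar2, Ffar4 and Hcar2.

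Of 18 genes of the olfactory cascade 14 passed the filter, and 10 of those differed among tissues in the F test, against 59.6% of all tested genes. Gnas, the stimulatory G protein subunit that most tissues use, was higher in aorta, at 607 ± 67.6, against tissue means of 164 to 401 elsewhere (SD, n = 3; log2 fold change 1.32 ± 0.23, limma, adjusted p = 1.47e-04). It was lower in intestine, at 164 ± 24.3 (n = 4; log2 fold change -0.88 ± 0.20, limma, adjusted p = 0.00313). Gnal, the olfactory form, was low throughout, with tissue means of 30.3 in stomach and 0.333 to 11.3 elsewhere. Heart and kidney, the tissues with most Or51e1, had Gnal means of 0.333 and 11.3, the second being 5.00 without kidney 3, and Gnas means of 401 and 259.

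Adcy3, the adenylyl cyclase of the olfactory cascade, was higher in lung, at 1022 ± 57.5, against means of 154 to 636 elsewhere (SD, n = 3; log2 fold change 2.10 ± 0.39, limma, adjusted p = 0.00211). Lung was the tissue with the least Or51e1. The subunits of the cyclic AMP channel were low: Cnga2 had 8 at most, Cnga4 reached a mean of 10.3 in bladder and was at 1.67 or less elsewhere, and Cngb1 had tissue means of 0 to 18.7. Pde1c, a phosphodiesterase that breaks down cyclic nucleotides in olfactory cilia and in muscle, was higher in intestine, at 396 ± 123 (n = 4), and in stomach, at 126 ± 6.08 (n = 3), against 1.33 to 10.0 elsewhere. Its log2 fold changes were 6.14 ± 0.75 and 4.29 ± 0.84, with adjusted p of 4.65e-06 and 9.64e-04 (limma). Grk3, a kinase that desensitizes olfactory receptors, was higher in intestine, at 364 ± 46.9 (n = 4), against 21.0 to 385 elsewhere, a range in which kidney reached 385 ± 365, or 178 without kidney 1 (log2 fold change 2.29 ± 0.63, limma, adjusted p = 0.0117).

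Arrb2, the arrestin that binds active receptors, was lower in aorta, above 0 in 1 of 3 libraries, at 13.3 ± 23.1, against 139 to 211 elsewhere (SD, n = 3; log2 fold change -5.51 ± 0.88, limma, adjusted p = 8.16e-05). Gng8, a G protein gamma subunit, was lower in intestine, at 32.8 ± 3.10, against 38.0 to 201 elsewhere (n = 4; log2 fold change -1.52 ± 0.37, limma, adjusted p = 0.00517). Ano2, the chloride channel that amplifies the olfactory current, differed in the F test (adjusted p = 0.00217), with means of 85.5 ± 12.7 in intestine (n = 4) and 1.67 to 61.3 elsewhere, heart being at 2.67. Gnb1, Pde4a, Ric8b and Slc24a4 did not pass the F test, and Gng13, Cnga2, Cnga4 and Pde2a did not pass the filter. The median log2 fold change of the 14 genes was -0.11 in heart, where that of all tested genes was -0.19, and 0.16 in kidney, against 0.22 for all.

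Of 10 receptor transport genes, whose products carry olfactory receptors to the cell surface or shape the endoplasmic reticulum, 8 passed the filter and 6 of those differed in the F test, against 59.6% of all tested genes. Rtp1, a main chaperone of olfactory receptors in the nose, had 8 at most in any library, and Rtp2 had no row in the table. Rtp4 was lower in aorta, above 0 in 1 of 3 libraries, at 22.0 ± 38.1, against 207 to 358 elsewhere (SD, n = 3; log2 fold change -5.99 ± 0.78, limma, adjusted p = 1.02e-05). Reep6 was higher in intestine, at 327 ± 70.7, against 15.7 to 213 elsewhere (n = 4; log2 fold change 3.83 ± 1.06, limma, adjusted p = 0.0115), and Reep5 lower, at 961 ± 66.6, against 1205 to 1976 (log2 fold change -0.57 ± 0.15, adjusted p = 0.00849). Rtp3, at most 21.3 in kidney (14.0 without kidney 2) and 0 in all aorta libraries, and Reep4, highest in stomach at 402 ± 42.8 (n = 3), also differed in the F test (limma, adjusted p = 0.00824 and 0.00587). No transport gene passed in heart, where Reep1 had its highest mean, 541 ± 50.3 (n = 3), with an adjusted p of 0.0505. In heart the median log2 fold change of the 8 genes was -0.29, against -0.19 for all tested genes.

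Of 11 receptors and carriers for short-chain acids and lactate, 9 passed the filter. All 9 differed in the F test, against 59.6% of all tested genes. Slc5a8 and Slc5a12 among them passed the filter only through kidney. Ffar2 and Ffar4 would not have passed it without stomach and intestine, nor Hcar2 without bladder and intestine. The count thus supports nothing about these genes as a set. The receptors for such acids other than Or51e1 and Or51e2 were low in heart: Ffar2, Ffar4 and Hcar2 were at 0 in each heart library and Hcar1 had a mean of 5.33. Hcar1, the lactate receptor, was highest in intestine, at 573 ± 72.7 (n = 4; log2 fold change 4.94 ± 0.52, limma, adjusted p = 7.80e-07). It was also higher in kidney, at 188 ± 23.3 (n = 3; log2 fold change 3.07 ± 0.59, limma, adjusted p = 0.00166), and was at 0 in all 3 aorta libraries. Ffar2, a receptor for acetate and propionate, had 64.0 ± 55.5 in stomach and 30.2 ± 26.2 in intestine, against means of 0 to 7.00 elsewhere (SD, n = 3 and 4). Outside these gut tissues it had 9 at most, so it passed the filter through them and no test is given. Without stomach 3 the Ffar2 mean in stomach was 32.0, and without intestine 1 it was 18.7 in intestine. Ffar4, a receptor for longer fatty acids, had 19.3 ± 5.51 in stomach and 13.2 ± 5.91 in intestine (SD, n = 3 and 4). Its means elsewhere were 0 to 8.67. Ffar4 too passed the filter only through these gut tissues together, so no test is given.

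Beside these gut values stand the markers of other cells: 5 enteroendocrine markers summed to 2803 to 3535 in stomach and 224 to 890 in intestine, against 0 to 19 elsewhere. The 5 epithelial markers summed to 7469 to 9991 in stomach and 4257 to 6008 in intestine, against 32 to 3058 elsewhere, and their part in the gut values was not tested. Hcar2, the receptor for butyrate and nicotinic acid, had 86.3 ± 72.5 in bladder and 17.8 ± 8.22 in intestine, against means of 0 to 3.67 elsewhere (SD, n = 3 and 4). Outside bladder and intestine it had 7 at most, so it passed the filter through them and no test is given. Without bladder 2 the bladder mean was 44.5. Bladder also had the highest sum of 8 macrophage markers, 2120 to 4524, against 32 to 1635 elsewhere, and their part was not tested.

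The carriers had other patterns. Slc16a1, a widespread monocarboxylate carrier, had means of 707 in bladder, 695 in stomach and 572 in intestine, against 162 to 210 elsewhere (limma F test, adjusted p = 3.06e-04). Slc5a12 and Slc5a8, sodium-coupled carriers of lactate in kidney tubules, averaged 94.7 ± 58.2 and 30.3 ± 20.2 in kidney, against 0 to 11.0 and 0 to 13.3 elsewhere (SD, n = 3). Both reached 10 in only 1 library outside kidney and so passed the filter through kidney, and no test is given. The Slc5a8 mean was 19.5 in kidney without kidney 1 and 5.00 in stomach without stomach 3, and the Slc5a12 mean in lung rested mostly on lung 1, with 30. The epithelial marker sum in kidney was 377 to 1715, and its part was not tested. Slc16a7, a monocarboxylate carrier, was higher in stomach, at 933 ± 215, against 91.7 to 631 elsewhere (n = 3; log2 fold change 2.05 ± 0.37, limma, adjusted p = 3.91e-04), and lower in bladder (log2 fold change -1.81 ± 0.37, adjusted p = 0.00190). Slc16a3, the carrier of lactate out of glycolytic cells, was higher in bladder, at 416 ± 178, against 84.0 to 319 elsewhere (n = 3; log2 fold change 1.54 ± 0.34, limma, adjusted p = 0.00413).

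**Figure D5:**
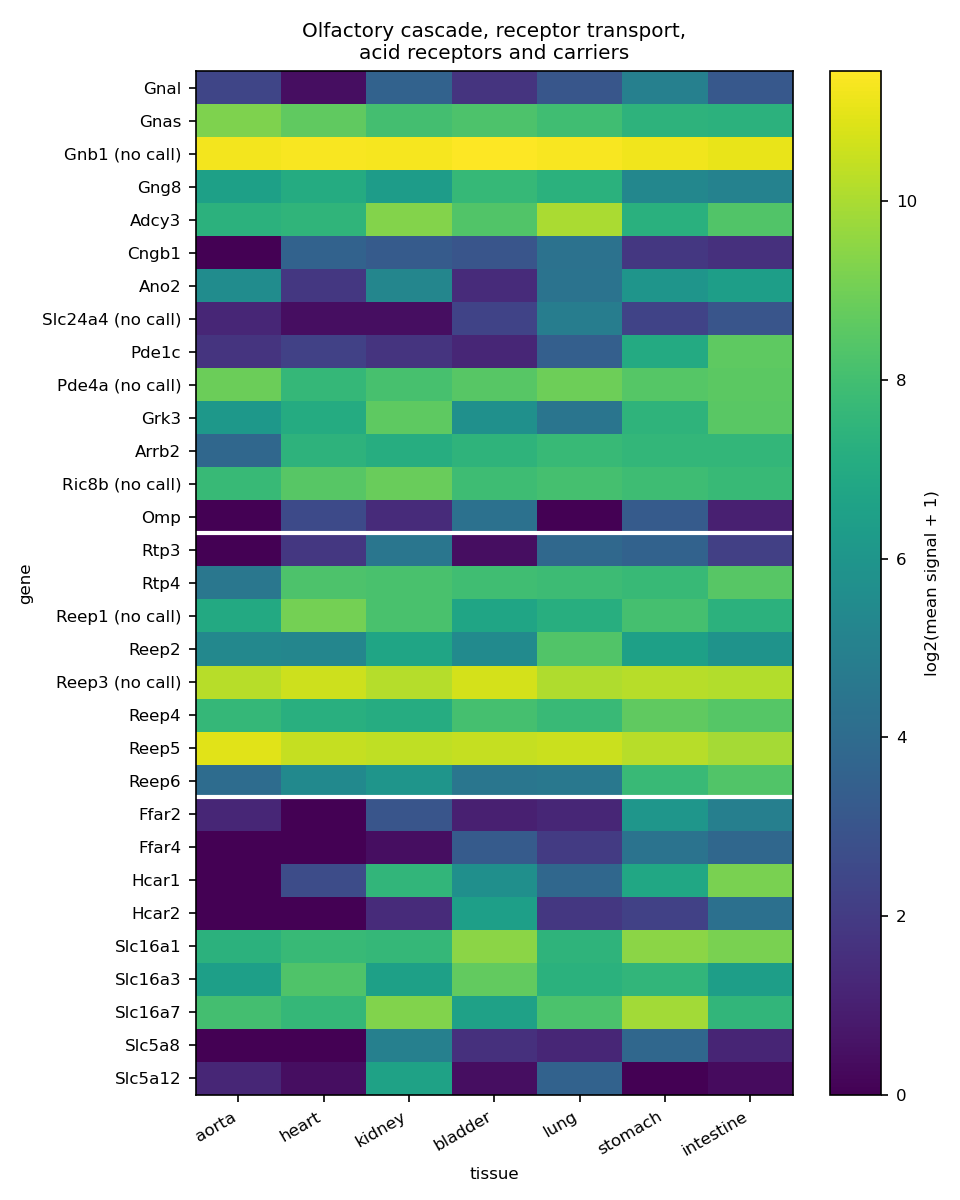
Mean signal per tissue as log2(mean + 1) (colour) of the tested genes of the olfactory cascade (top block), receptor transport (middle block) and acid receptors and carriers (bottom block). Genes that missed the F test are marked "no call". Pde1c and Hcar1 are highest in intestine, Ffar2 in stomach, Adcy3 in lung and Slc5a12 in kidney.

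Markers of olfactory neurons were low. Omp, the defining marker of mature olfactory neurons, was at 0 in aorta and lung and had its highest mean, 18.3, in bladder. Of 8 olfactory neuron markers in the table, Gng8 was the highest in every tissue, and Stoml3, Cnga2, Rtp1 and Lhx2 reached means of 5.00 at most. Emx2 had 33.7 in kidney and 1.00 or less elsewhere. The summed signal of the list was 97 to 181 in heart and 78 to 167 in kidney, against 37 to 330 in the other tissues.

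Kidney, with the next highest levels of Or51e1 and Or51e2, also held the signal of renin cells, a cell type known to make Or51e2. Ren1 had 1345 to 3337 in the kidney libraries, against 725 in aorta 1, 67 to 163 in stomach and 57 at most in the other libraries. In heart, where both receptors were highest, Ren1 had 4 at most. The 5 renin cell markers summed to 4718, 5364 and 7106 in kidney 1, 2 and 3, where Or51e2 had 1315, 342 and 600. Ren1, the highest of these markers in kidney, had 1.78, 1.77 and 1.78 rebuilt reads per exonic base there. At 1 level of reads per base its signal follows what 1 read is worth, so the order of these sums cannot be set against that of Or51e2. The part of renin cells in the kidney values was not tested. In heart, 5 cardiomyocyte markers summed to 2426 to 3211, against 18 to 2040 elsewhere, and 6 endothelial markers to 3926 to 5040, against 546 to 5647, and their part was not tested either.

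The genes whose pattern was most like each receptor were named by Pearson r on log2(signal + 1) over the 22 libraries, which share depth and RNA with the receptor itself. For Or51e1 they were Pln, the phospholamban regulator of calcium uptake (r = 0.91), Nrip2 (0.91), Slc38a11 (0.90), Asb4 (0.87) and Sorbs2 (0.86). Pln had means of 842 in heart, 649 in kidney and 21.3 in lung, and Sorbs2 had 7321, 4637 and 109, so both were also lowest in lung. For Or51e2 they were Tspan12 (0.96), Dgkg (0.90), Nrarp (0.89), Pde1a (0.88) and Gjc1 (0.87). Tspan12, a tetraspanin, had 1379 in heart, 1177 in kidney and 910 in aorta, against 262 to 543 in the other tissues. For Or5m3b they were the potassium channel subunit Kcnab1 and Rgs7bp (0.85 each) and Ebf1, Rnf167 and Map7d1 (0.84 each), and Kcnab1 had 122 in stomach, its lowest tissue. For Or2t43 they were Hacd1 (0.86), Tcp1 and Pdlim7 (0.85 each), Ogn (0.84) and Fgf13 (0.83), each with its highest mean in aorta. Fgf13 had 418 there and 23.7 to 98.3 in the other tissues.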

How the data were processed

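Members and gene lists were chosen with earlier results of these data known. Tools named in the submitters' processing notes, with no order, were STAR 2.7.10a, featureCounts 2.0.4, Trimmomatic 0.39, Picard 3.0.0, DESeq and DESeq2 1.36.0, on mm39. Per the labels' protocols, the SMART-Seq v4 kit was given no more than 10 ng of total RNA. The values the authors deposited are a signal for 28099 genes in 22 libraries; that each library was scaled and rounded is read from the numbers.

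What 1 read is worth was found by likelihood for each library, and signal was divided by it to rebuild reads. This search, tested on 30 simulated libraries, missed the true step by over 1% in 0. Where the step is below 1 every whole number lies on it, so only the search supports the depth, and bladder 2, with a step of 0.9880, is least certain.

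As the values are not counts, limma 3.58.1 (R 4.3.3) with a trend was run on log2(signal + 1), a scale that understates changes of low genes. It took in 16917 genes that reached 10 in 3 or more libraries, in a single fit of the 7 tissues, and used Benjamini-Hochberg adjusted p under 0.05. It was tried on simulated counts for these 16917 genes, all given the same spread. Of these, 200 with a mean signal of at least 50 were changed 4-fold in 1 tissue. It recovered 86.0% of them in kidney and 90.0% in aorta, calling 0.0837% and 1.14% of unchanged genes. Its F test over tissues recovered 39.5% and 44.5%. Recovery of genes with a lower mean signal was not tested. Each receptor's tissue levels chose it and carry no test. Alternatives were other pseudocounts, filters and scalings, edgeR 4.0.16 on rebuilt reads, a replicate block and leaving out libraries. Exonic lengths came from GENCODE M21 (GRCm38) and promoters, matched by symbol for 2 of 4 receptors, from RefSeq (GRCm38.p6). Named genes were the receptors, their neighbours within 5 genes, tested members of the lists, the 5 most alike genes per receptor, predicted genes left out, other olfactory receptors with a tissue mean of at least 10, and markers. Myl9 was added after its values were seen, and 1 marker is not reported here.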

Additional observations from a re-analysis of the deposited data

Results flagged for a closer look

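In intestine, the tissue with 4 libraries, a single library stood far from the other 3 for 5 of 39 genes examined. For genes with values above 0 chance gives about 1 in 20. Or5m3b had 135 in 1 library, against 112, 114 and 114 in the others. Reep3 had 928 in 1 library, against 1193 at most. Slc16a1 had 796, against 475 to 510. Slc5a8 had 5 and Slc5a12 had 1, each against 0 in the other 3, where any value above 0 stands apart by construction.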

How the results depend on the processing

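Results with single libraries left out stayed within the limits used for a change in 265 of 276 cases, other alternatives in 119 of 141. Splits turned in lung, with 2 higher and 3 lower by the median of ratios against 3 and 2, and in heart, with 6 and 0 in edgeR against 3 and 6. Listed genes called in lung, 5 of 39, numbered 9 with a pseudocount of 5, 17 of 70 with no filter, 9 without the 3 aorta libraries, 12 without the 4 shallowest libraries and 3 with the replicate block. With a signal of at least 50 asked, calls numbered 12 in aorta instead of 20, 3 in heart instead of 9 and 5 in kidney instead of 10, fewer genes being tested, and the F test called 4 acid genes instead of 9 and 2 neighbours instead of 5. Neighbours called numbered 11 of 32 with no filter and 8 in edgeR, which called 6 in aorta. Without aorta, heart had 21 calls and bladder 15 instead of 9, and bladder had 18 without the 4 shallowest libraries. The cause was not tested. Olfactory receptors past a mean of 5 numbered 16 in aorta, 11 in kidney and 5 in stomach, and past a mean of 20 they numbered 4 in aorta, 3 in kidney and 3 in lung, against 7, 7, 3 and 6 at a mean of 10 in aorta, kidney, stomach and lung.

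Without 1 library, calls ran from 13 (without aorta 1) to 21 in aorta, 4 (without heart 3) to 13 in heart, 3 (without kidney 1) to 13 in kidney, 5 (without bladder 2) to 11 in bladder, 1 (without lung 3) to 8 (without aorta 1) in lung, 6 (without stomach 2) to 17 in stomach and 12 to 18 in intestine. Whether replicate numbers pair libraries is not stated in the labels. The 63 pairs of the same number in different tissues had a median r of -0.010 (-0.10 to 0.26). For 144 pairs of different numbers it was 0.0092 (-0.29 to 0.22). Since these ranges overlap, such values cannot show whether libraries of the same number share an animal. With the replicate block, calls numbered 18 in aorta, 9 in heart, 7 in kidney and 14 in intestine. Depth limits aorta and heart 3, where 3 reads equal a signal of 9.91 to 28.3.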
